A study of Arabidopsis thaliana with 50 samples.

Results

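The genes described here are 10 Arabidopsis genes known for fast responses to touch and stress, followed through 50 RNA-seq libraries of wild-type seedlings and of mutants, many of them lacking a subunit of the Mediator kinase module. The members were chosen by locus identifier: the calcium sensor genes *TCH2* (AT5G37770) and *TCH3* (AT2G41100), the cell wall gene *TCH4* (AT5G57560), the zinc finger genes *STZ* (AT1G27730) and *RHL41* (AT5G59820), the WRKY genes *WRKY40* (AT1G80840), *WRKY33* (AT2G38470) and *WRKY53* (AT4G23810), and the ERF genes *ERF4* (AT3G15210) and *ERF104* (AT5G61600). They are 10 of 37338 genes, which were counted with transposable elements as 68527 features. All 10 had counts in every library and passed the filter on low counts in each of 16 comparisons.

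The TCH genes were found as genes whose transcripts build up within minutes of touching a plant. *TCH2* and *TCH3* encode calmodulin-like proteins that bind calcium, a rapid second messenger, and *TCH4* encodes a xyloglucan endotransglucosylase/hydrolase that remodels cell wall xyloglucan. *STZ* (also called ZAT10) and *RHL41* (also called ZAT12) are C2H2 zinc finger regulators that respond to cold, salt, high light and oxidative stress. WRKY proteins bind W boxes: WRKY33 promotes defence against necrotrophic fungi, WRKY40 is mainly a repressor in defence and abscisic acid responses, and WRKY53 promotes leaf senescence. ERF proteins bind GCC boxes: ERF4 is a repressor, and ERF104 is an activator released in the response to bacterial flagellin. Mediator links transcription factors to RNA polymerase II, and MED12 and MED13 belong to its detachable kinase module.

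All plants were seedlings 8 days old on plates, several seedlings pooled per library, grown with 16 h of light a day. In the light experiment, Col-0 wild type and *med12* (the T-DNA allele *cct-2*) were kept for 24 h in darkness and collected either in the dark or after 15 min of light, with 3 libraries in each of 4 groups. The other 38 libraries came from long-day seedlings: Col-0, *med12* and *med13* (the T-DNA allele *gct-2*), with 4 libraries each, and lines of the *SDC:GFP* reporter set. The reporter set held a wild type with the reporter (4 libraries), *morc1* (the T-DNA allele *morc1-4*, 4 libraries numbered 1 to 4 and 3 numbered 5 to 7), *morc1/med12* (3 libraries), *morc1/med13* (4), the DNA methylation mutant *drm1 drm2 cmt3*, called *ddc* (4), and *ddc/med13* (4). The *med12* lesion in *morc1/med12* and the *med13* lesion in *ddc/med13* were small CRISPR-CAS9 deletions made in the mutant, whereas *gct-2* was crossed into *morc1*. The labels name the reporter for the wild type alone. The study's methods describe *morc1* and *ddc* both with and without it, so whether the single mutants sequenced carried it is not stated. Each double mutant was compared with its own single mutant. MORC1 is needed to silence some methylated loci without changing their methylation. Nothing in the labels tied a library to a separate culture, so the p-values measure at most the spread between libraries.

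The libraries held 2767761 to 6786822 counts. The number of counts was lowest in *ddc* (2767761 to 3340821) and highest in *med12* after dark (6480578 to 6786822). MED12 transcripts fell in the T-DNA mutant (log2 difference −1.40 in long days, −1.59 in the dark and −1.52 in the light) and were not lowered in the CRISPR line (147 against 131 CPM in its *morc1* control, CPM being counts scaled to the library total). MED13 transcripts were not called lower in any *med13* mutant (123 against 109, 109 against 114 and 125 against 98.1 CPM), so the counts do not check those labels. MORC1 stood at 24.0 CPM in *morc1* and 35.5 in its wild type, DRM2 and CMT3 fell in *ddc* (−0.84 and −1.88), and *SDC*, the endogenous gene of the reporter, rose in both (3.33 and 6.41). In the light experiment, libraries of a group differed by no more than counting noise: the mean chi-square per feature between 2 libraries, which is 1 for counting alone, was 0.551 to 0.770 over 12 pairs, against 0.842 to 6.20 over 54 pairs in the 10 other groups. Over sparse features (under 0.02 counts per exonic base) it was 0.922 to 1.13 against 1.06 to 2.66. The pairs of the reporter wild type (0.842 to 0.981) were also below 1, and 1.06 to 1.17 over sparse features. The p-values of the light experiment therefore measure little beyond counting error. Shoot marker genes (RBCS1A, LHCB1.3, RCA and PSBO1) were called in none of the 11 direct comparisons. Their CPM was higher where libraries held fewer counts (RBCS1A at 117 in long-day Col-0 and 209 in the reporter wild type). Removal of duplicate reads can cap counts of such abundant transcripts, so the lack of calls says little about shoot content. Of 4 root markers, *EXPA7* rose in *med12* in the dark (9.48 to 18.3 CPM) and in the light, and *COBL9* fell in *ddc* and *morc1/med13*. The part of tissue composition in the results was not tested.

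The sequences before the gene starts were searched for short motifs that bear on these families, because WRKY and ERF proteins bind such motifs. The window was the 500 bases upstream of the annotated start in RefSeq TAIR10.1, read on both strands. A W box (TTGACC or TTGACT) was present in 5 of 10 members and in 45.2% of 27443 protein-coding promoters. A GCC box (GCCGCC) was present in 3 of 10 against 4.12%, one of the matches, for *TCH3*, lying within the neighbouring gene AT2G41090. The motif CGCGTT, bound by calmodulin-binding activators, was present in *TCH2* alone among the members, against 4.61%. Its overlapping form ACGCGT was also present in *TCH2* alone, against 2.82%. The G box (CACGTG) was present in *ERF4* alone, against 9.35%. *WRKY40* and *ERF104* held none of these letters in the window. A match is a description of letters and not a measured binding site.

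The stretches that follow are shown as examples of the motifs searched, read 5′ to 3′ on the strand of the gene with the motif, or its reverse complement, in capitals. The *TCH2* stretch holds the palindrome AACGCGTT at both marked places, which is CGCGTT on either strand.
TCH2, minus strand, chr5:14999661-14999719: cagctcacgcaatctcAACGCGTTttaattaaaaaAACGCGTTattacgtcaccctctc
STZ, minus strand, chr1:9649384-9649421, GCC box: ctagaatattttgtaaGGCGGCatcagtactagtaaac
WRKY33, plus strand, chr2:16108090-16108127, GCC box: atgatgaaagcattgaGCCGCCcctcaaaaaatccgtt
WRKY33, plus strand, chr2:16107927-16107964, W box: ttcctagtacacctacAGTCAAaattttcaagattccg
WRKY33, plus strand, chr2:16108187-16108224, W box: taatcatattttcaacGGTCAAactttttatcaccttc
WRKY53, minus strand, chr4:12394180-12394217, W box: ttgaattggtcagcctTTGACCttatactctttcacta
WRKY53, minus strand, chr4:12394032-12394069, W box: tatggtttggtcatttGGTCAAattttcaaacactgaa
ERF4, plus strand, chr3:5121223-5121260, G box: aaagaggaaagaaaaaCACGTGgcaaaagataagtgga
The genes themselves lie, in TAIR10.1, on 5 chromosomes and all encode proteins. *TCH2* is at chr5:14997514-14999619 on the minus strand and *TCH3* at chr2:17137037-17139700 on the plus strand. *TCH4* is at chr5:23307006-23308680 (minus) and *STZ* at chr1:9648021-9649323 (minus). *RHL41* is at chr5:24102814-24103794 (plus) and *WRKY40* at chr1:30383561-30385499 (plus). *WRKY33* is at chr2:16108235-16110766 (plus) and *WRKY53* at chr4:12392370-12393982 (minus). *ERF4* is at chr3:5121303-5122562 (plus) and *ERF104* at chr5:24766344-24767732 (minus).

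Levels are given as CPM scaled over all 50 libraries, which can be compared between libraries for 1 gene but not between genes. The members differed in where they were highest. *STZ* ranged over the widest span with *WRKY40*: mean *STZ* levels went from 8.84 CPM in *med12* after dark to 97.1 in *morc1/med13* (11.0-fold), and mean *WRKY40* levels from 6.26 in the reporter wild type to 69.5 in long-day *med12* (11.1-fold). *TCH3* and *TCH4* were highest in *ddc* (183 and 214 CPM) and lowest in the reporter wild type (38.9 and 39.3). *WRKY53* was highest in Col-0 after 15 min of light (21.1) and lowest in the reporter wild type (3.24). *ERF104* was highest in *ddc* (88.9) and lowest in *med12* after light (21.2), and *ERF4* was highest in *morc1/med13* (76.0) and lowest in *med12* after dark (20.1). *RHL41* went from 10.1 in *morc1/med12* to 40.0 in *med12*, *WRKY33* from 46.2 in the reporter wild type to 136 in *med12*, and *TCH2* from 27.9 in Col-0 dark to 89.9 in *morc1/med13*. For no member did the libraries of the highest group stand clear of those of the second-highest group. The lowest group stood clear of the next for *TCH2*, *TCH4* and *STZ*.

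**Figure D1:**
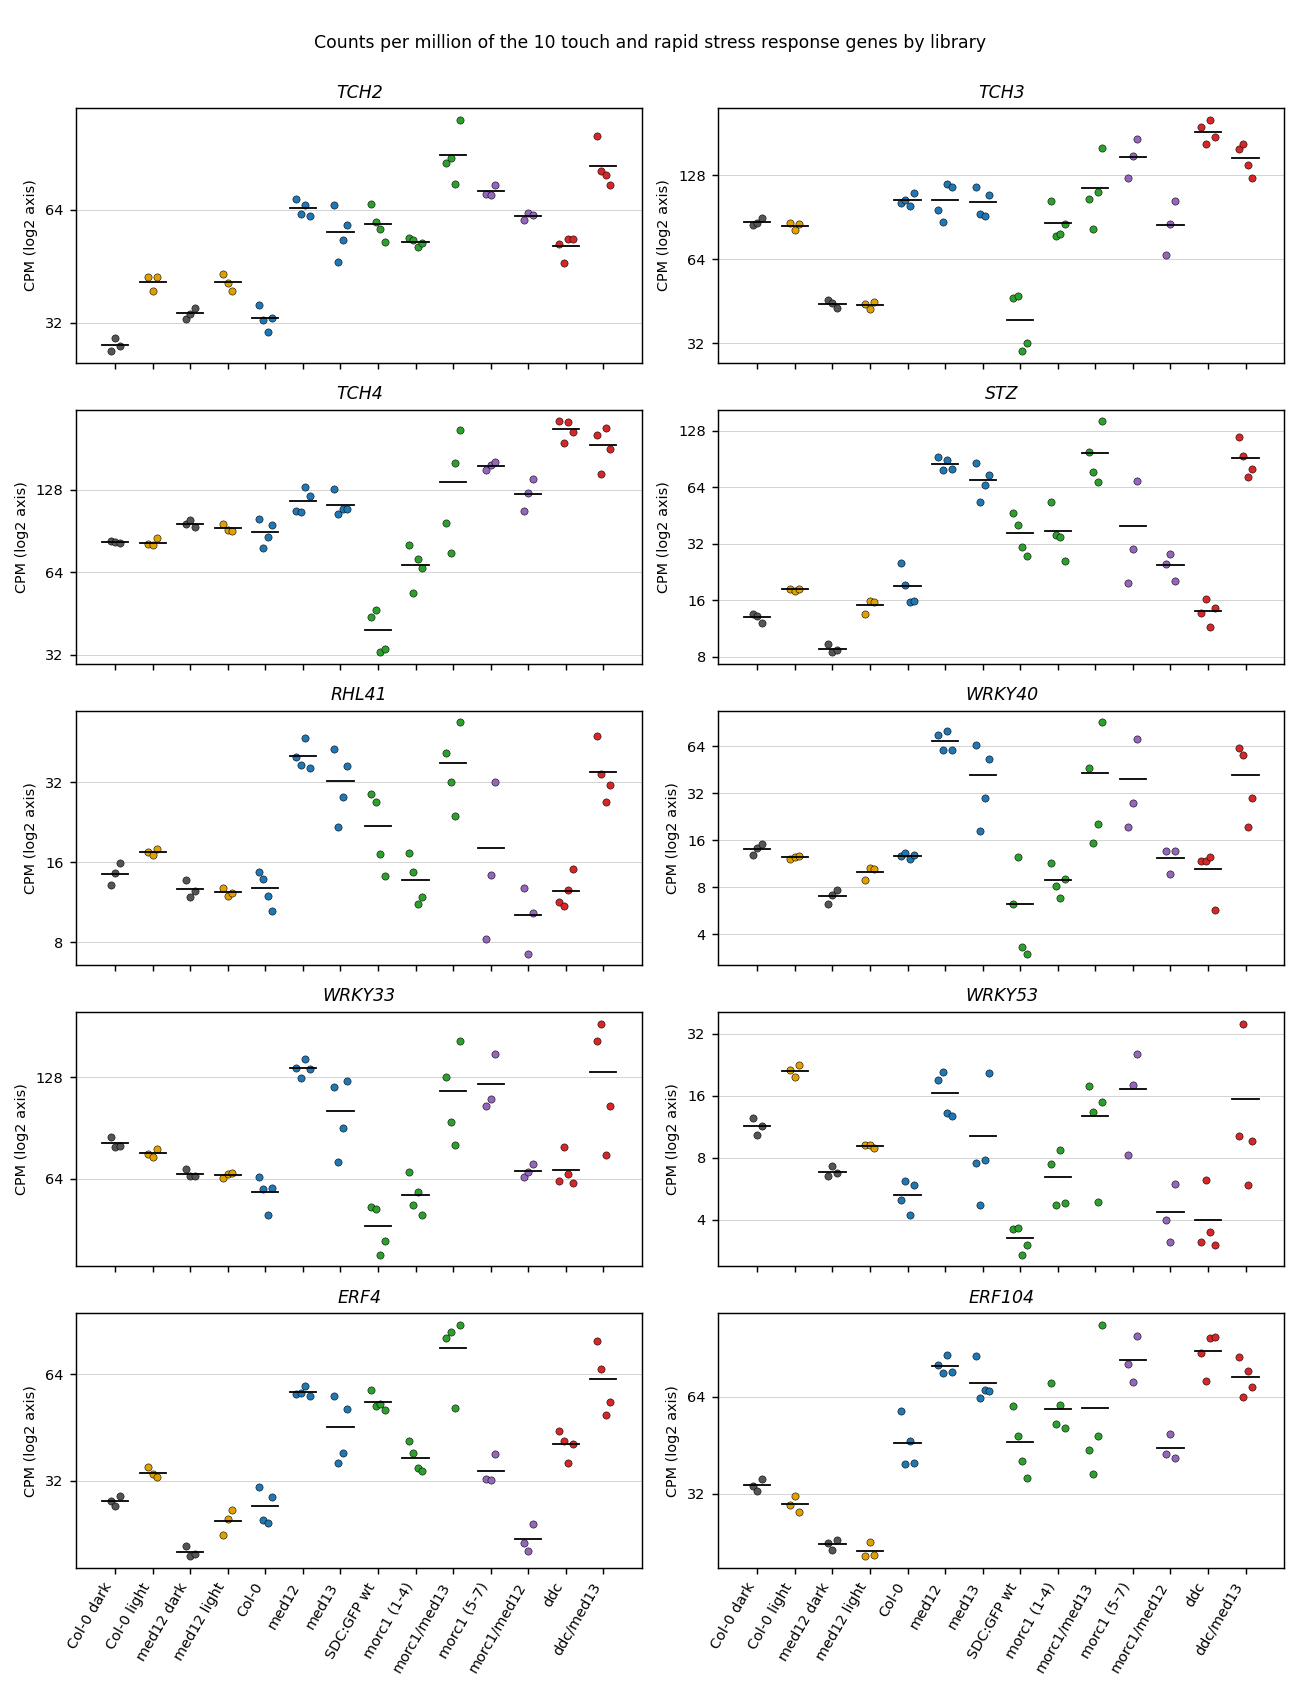
Level of each of the 10 genes in every library, in CPM on a log2 axis, by group of samples; points are libraries and short bars are group means. *STZ* and *WRKY40* spread most, 11.0-fold and 11.1-fold between their lowest and highest group means, and *TCH3* and *TCH4* are highest in *ddc*.

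A gene was called changed when it differed by more than 1.5-fold with an adjusted p below 0.05 (edgeR quasi-likelihood test, Benjamini-Hochberg adjustment over all features tested), and a difference between 2 effects when its adjusted p was below 0.05. All fold changes below are log2 differences with their standard error (SE). Over all features tested, the median log2 difference lay between −0.0064 and 0.0257 in the 16 comparisons. All adjusted p-values below are from these edgeR fits unless another tool is named.

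**Figure D2:**
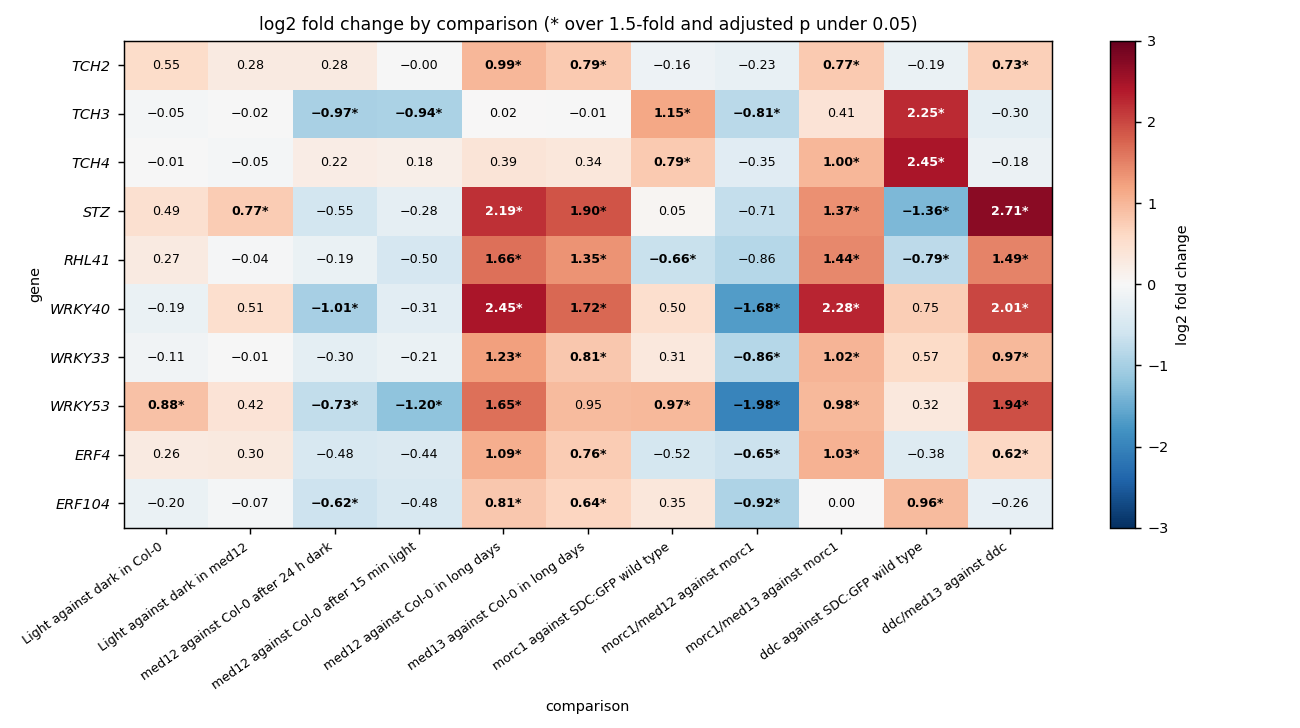
Log2 fold change of the 10 genes (rows) in the 11 direct comparisons (columns), with an asterisk on those called at 1.5-fold and an adjusted p below 0.05. Long-day *med12* has 8 called genes, all higher, whereas *med12* after 24 h of dark has 4, all lower.

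The first question was which members respond to 15 min of light after a long night. In Col-0, 1 of 10 members rose, *WRKY53*, and none fell, where 1.94% of all features tested rose and 0.934% fell, and the median over the members was 0.12. *WRKY53* levels were 12.4, 10.3 and 11.4 CPM in the dark and 21.2, 19.7 and 22.4 after light. Every light library was above every dark library, and the gain was 0.88 (SE 0.10, 1.85-fold, adjusted p = 1.1e-09). *TCH2* levels were 26.9, 29.2 and 27.7 CPM in the dark and 42.3, 38.9 and 42.3 in the light, again without overlap. The *TCH2* difference of 0.55 (SE 0.08, 1.47-fold, adjusted p = 1.5e-10) was just short of the fold required, which it passed when dark replicate 2 (0.59) or light replicate 2 (0.60) was left out. *STZ* stood at 13.6, 13.3 and 12.0 CPM in the dark and 18.5, 17.9 and 18.5 in the light (0.49, SE 0.12, adjusted p = 0.00055), a difference under 1.5-fold. *ERF4* differed by 0.26 (adjusted p = 0.017), and the values of *TCH3* (−0.05), *TCH4* (−0.01), *RHL41* (0.27), *WRKY40* (−0.19), *WRKY33* (−0.11) and *ERF104* (−0.20) had adjusted p between 0.092 and 0.92.

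In *med12* the same light pulse raised *STZ*. Its levels were 9.39, 8.44 and 8.70 CPM in the dark and 13.6, 15.8 and 15.6 in the light, which did not overlap (0.77, SE 0.11, 1.70-fold, adjusted p = 9.7e-07). *STZ* was the 1 member of 10 that rose, none fell, and 0.783% of all features rose and 0.986% fell. The median over the members was 0.13. *WRKY53*, at 6.55, 7.26 and 6.73 CPM in the dark, stood at 9.26, 9.26 and 8.95 in the light, also without overlap, but the difference of 0.42 (SE 0.16) did not pass the test (adjusted p = 0.1). *WRKY40* stood at 6.26, 7.11 and 7.71 CPM in the dark and 8.94, 10.6 and 10.5 in the light. The *WRKY40* difference (0.51, adjusted p = 0.02) was under 1.5-fold in the full set and above it without dark replicate 3 or light replicate 1 (both 0.59). *TCH2* (0.28) and *ERF4* (0.30) had adjusted p of 0.0055 and 0.033 at less than 1.5-fold, and *TCH3*, *TCH4*, *RHL41*, *WRKY33* and *ERF104* lay between −0.07 and −0.01.

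The light responses of the genotypes were then set against each other in 1 fit. *WRKY40* was the 1 member whose response differed, being 0.70 (SE 0.20) higher in *med12* (adjusted p = 0.047), where 0.434% of features differed upward and 0.608% downward and the median over the members was 0.03. This call is at the edge of the test: its adjusted p was 0.46 with DESeq2 and 0.05 with other size factors and 0.059 with no filter on low counts, it was kept without dark Col-0 replicate 1 and without light *med12* replicate 1, and it was lost when any of the 10 remaining libraries was left out, with values of 0.62 to 0.77 throughout. The responses of *WRKY53* (−0.46, SE 0.20, adjusted p = 0.41), *TCH2* (−0.28, SE 0.11, adjusted p = 0.31) and *STZ* (0.28, adjusted p = 0.71) were not shown to differ between genotypes, nor were those of *RHL41* (−0.30), *TCH3* (0.03), *TCH4* (−0.04), *WRKY33* (0.09), *ERF4* (0.04) and *ERF104* (0.13), although *WRKY53* was called in Col-0 alone and *STZ* in *med12* alone.

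**Figure D3:**
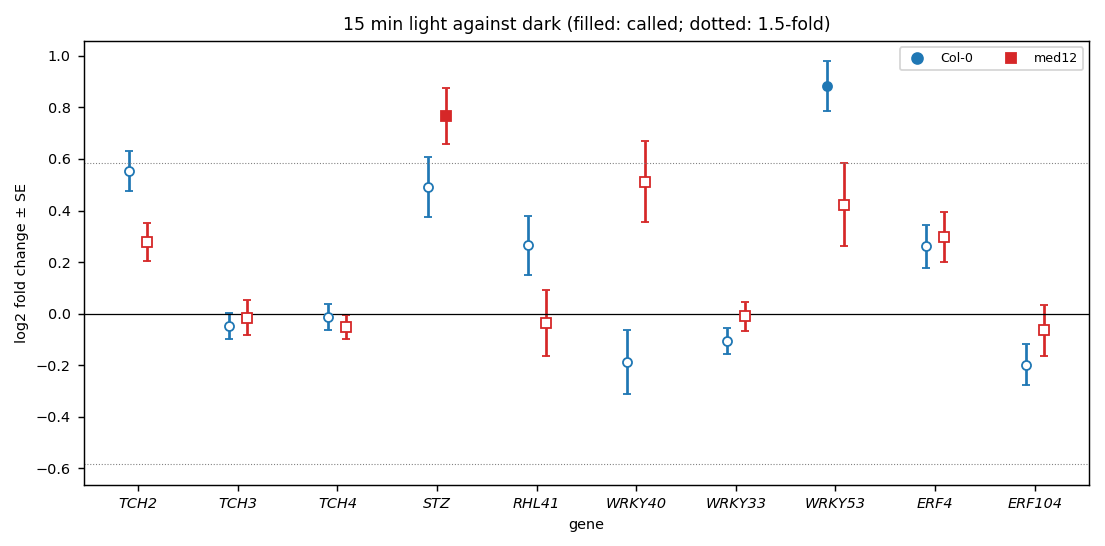
Log2 difference, 15 min light minus dark, for each of the 10 genes in Col-0 and in *med12*, with bars of 1 standard error, filled symbols for called genes and dotted lines at 1.5-fold. *WRKY53* is highest in Col-0 (0.88) and *STZ* in *med12* (0.77), and *TCH3*, *TCH4* and *WRKY33* lie near 0 in both.

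The second question was how loss of MED12 changes these genes. After 24 h of darkness, 4 of 10 members fell in *med12* and none rose, whereas 7.69% of all features fell and 5.71% rose, and the median over the members was −0.52. *TCH3* stood at 84.8, 86.4 and 89.7 CPM in Col-0 and 45.7, 44.6 and 42.9 in *med12* (−0.97, SE 0.04, 1.96-fold lower, adjusted p = 1.1e-24). *WRKY40* stood at 12.8, 14.4 and 15.2 CPM in Col-0 and, without overlap, at 6.26, 7.11 and 7.71 in *med12* (−1.01, SE 0.12, 2.01-fold lower, adjusted p = 3.2e-09). *WRKY53*, listed above for both genotypes in the dark, fell by 0.73 (SE 0.15, adjusted p = 9.5e-06). *ERF104* stood at 33.7, 32.7 and 35.6 CPM in Col-0 and 22.5, 21.3 and 22.9 in *med12* (−0.62, SE 0.06, 1.53-fold lower, adjusted p = 5e-11). *ERF104* lies close to the fold required and was under it without dark Col-0 replicate 3 (−0.58), and *STZ*, at −0.55, was past it without that library (−0.60) or without dark *med12* replicate 1 (−0.60). *ERF4* (−0.48) and *WRKY33* (−0.30) were lower by less than 1.5-fold with adjusted p of 1.8e-06 and 1.2e-07. *TCH2* (0.28) and *TCH4* (0.22) were higher by less than 1.5-fold with adjusted p of 0.0026 and 3.9e-05, and *RHL41* (−0.19) did not pass the test.

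After 15 min of light, 2 of 10 members fell in *med12* and none rose, where 9.1% of features fell and 5.06% rose, and the median was −0.38. *TCH3* levels were 86.6, 81.3 and 85.2 CPM in Col-0 and 44.4, 42.3 and 44.9 in *med12* (−0.94, 1.92-fold lower, adjusted p = 7.8e-24). *WRKY53* fell by 1.20 (SE 0.10, 2.29-fold lower, adjusted p = 1.7e-13), from the 19.7 to 22.4 CPM of lit Col-0 to 8.95 to 9.26. *WRKY40*, 2.01-fold lower in the dark, was at 12.1 to 12.8 CPM in lit Col-0 and 8.94 to 10.6 in lit *med12*, a difference of −0.31 that did not pass the test (adjusted p = 0.056). *RHL41* (−0.50), *ERF104* (−0.48), *ERF4* (−0.44), *STZ* (−0.28) and *WRKY33* (−0.21) were lower by less than 1.5-fold with adjusted p of 9.7e-07 to 0.035. *TCH4* was higher by less than 1.5-fold (0.18, adjusted p = 0.001), and *TCH2* did not pass the test in the light (−7e-04, adjusted p = 0.99). The dark and light comparisons use different libraries of the same experiment.

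In long days *WRKY40*, *WRKY53* and *ERF104*, which were called lower in the dark, went the other way. *TCH3* did not, and *TCH2* and *TCH4* had positive values in both settings. In *med12* seedlings 8 of 10 members rose and none fell, where 7.66% of features rose and 5.12% fell, and the median over the members was 1.16. *WRKY40* stood at 12.7, 13.4, 12.1 and 12.9 CPM in Col-0 and 75.3, 60.9, 80.6 and 61.1 in *med12* (2.45, SE 0.32, 5.48-fold, adjusted p = 4.5e-05). *STZ* stood at 25.3, 19.2, 15.7 and 15.9 CPM in Col-0 and 93.0, 79.4, 89.2 and 80.2 in *med12* (2.19, SE 0.16, 4.55-fold, adjusted p = 4.3e-07). Every mutant library was above every Col-0 library for both genes.

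The other zinc finger gene, *RHL41*, rose 3.17-fold in long-day *med12* (1.66, SE 0.19, adjusted p = 1.8e-05), from 14.7, 13.8, 12.0 and 10.5 CPM to 39.9, 37.1, 47.0 and 36.0. *WRKY53* rose 3.14-fold (1.65, SE 0.37, adjusted p = 0.0031), from 4.96, 6.13, 4.21 and 5.90 CPM to 19.1, 20.8, 13.2 and 12.8. *WRKY33* rose 2.34-fold (1.23, adjusted p = 1.9e-05), from 50.0 to 64.7 CPM in Col-0 to 127 to 145 in *med12*. The groups did not overlap for these genes. The ERF repressor gene *ERF4* rose 2.13-fold (1.09, adjusted p = 1.9e-05) from 24.3 to 30.6 CPM to 55.3 to 59.4, and *ERF104* rose 1.76-fold (0.81, adjusted p = 9.6e-05) from 39.6 to 57.9 CPM to 76.1 to 86.2. *TCH2* rose 1.99-fold (0.99, SE 0.09, adjusted p = 3.5e-06), from 35.8, 32.5, 30.3 and 32.8 CPM to 68.5, 62.2, 65.9 and 61.7. The cell wall gene *TCH4* was 1.31-fold higher (0.39, adjusted p = 0.0033), short of the fold required. *TCH3*, the calmodulin-like gene that fell in the dark and in the light, showed no difference that passed the test (0.02, SE 0.10, adjusted p = 0.89), with 99.3 to 110 CPM in Col-0 and 87.2 to 119 in *med12*. All 8 calls were kept without each library in turn.

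The difference between the dark and the long-day *med12* effects was tested in 1 fit of 14 libraries. The fit shares 1 estimate of the spread between the dark libraries, which differ by little beyond counting noise, and the more variable long-day libraries. Its common dispersion, the edgeR measure of that spread, was 0.00069, against 0.0032 in the long-day fit. The p-values of this difference may therefore understate the long-day spread. It was below 0 and past the test for 9 of 10 members, against 13.1% of features downward and 10.4% upward, and its median was −1.55. The difference was largest for *WRKY40* (−3.46, adjusted p = 6.5e-09), *STZ* (−2.73, adjusted p = 1e-07), *WRKY53* (−2.38, adjusted p = 5.1e-06) and *RHL41* (−1.86, adjusted p = 1.1e-06). It was −1.57 for *ERF4*, −1.53 for *WRKY33*, −1.43 for *ERF104*, −0.99 for *TCH3* and −0.71 for *TCH2*. *TCH4* was the exception (−0.17, adjusted p = 0.29). The 9 calls were kept under every alternative tried. No label says whether the dark and long-day libraries were made together, and a difference between the sets of libraries cannot be told apart from one between the conditions.

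Loss of MED13 in long days raised 7 of 10 members and lowered none, where 7.16% of features rose and 6.27% fell, and the median was 0.80. The *med13* and *med12* comparisons share the Col-0 libraries. *STZ* stood at 86.0, 53.1, 66.0 and 74.5 CPM in *med13* (1.90, SE 0.16, 3.72-fold, adjusted p = 1.9e-06), well above Col-0. *WRKY40* varied widely among *med13* libraries, at 65.5, 18.5, 29.7 and 53.0 CPM, each above the Col-0 libraries (1.72, SE 0.33, 3.29-fold, adjusted p = 0.0012). *RHL41* showed the same order of libraries, at 42.6, 21.6, 28.2 and 36.7 CPM (1.35, 2.56-fold, adjusted p = 0.00012).

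*TCH2* rose 1.72-fold in *med13* (0.79, adjusted p = 2.9e-05), *WRKY33* 1.75-fold (0.81, adjusted p = 0.00074) and *ERF4* 1.69-fold (0.76, adjusted p = 0.00046). *ERF104* rose 1.56-fold (0.64, adjusted p = 0.00072), a call that was lost without Col-0 replicate 2 or 4 or *med13* replicate 1 (0.54 to 0.58). *WRKY53* stood at 7.56, 4.74, 7.76 and 20.6 CPM, overlapping Col-0, and its 0.95 (SE 0.38) did not pass the test (adjusted p = 0.064), although it did so without *med13* replicate 2 (1.18, adjusted p = 0.018) and with DESeq2 (adjusted p = 0.037). Replicate 4, the high *WRKY53* library, was not the highest for *STZ*, *RHL41* or *WRKY40*, which were highest in replicate 1. *TCH4* (0.34, adjusted p = 0.0071) was short of the fold required, and *TCH3* (−0.01, adjusted p = 0.95) did not pass the test.

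**Figure D4:**
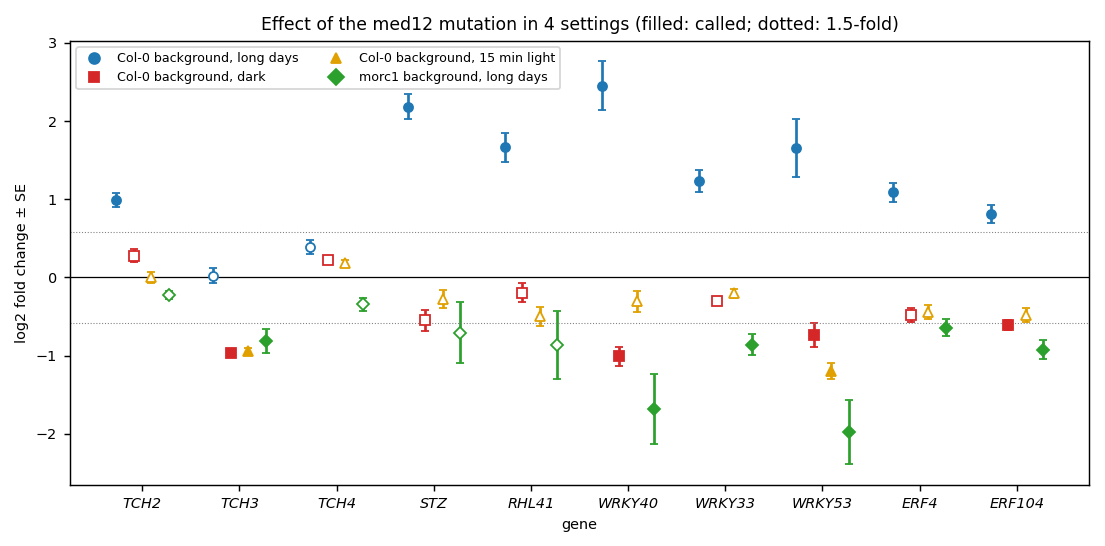
Log2 difference between *med12* mutants and their controls for each of the 10 genes in 4 settings (24 h dark, 15 min light, long days, and long days in the *morc1* background), with bars of 1 standard error, filled symbols for called genes and dotted lines at 1.5-fold. The long-day values in the Col-0 background lie above those of the other 3 settings for *STZ*, *WRKY40*, *WRKY53* and *RHL41*.

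The third question was whether loss of MED12 or MED13 acts alike in plants that already carry *morc1*. In *morc1* itself, replicates 1 to 4 against the reporter wild type, 3 of 10 members rose and 1 fell, where 1.19% of features rose and 1.37% fell, and the median was 0.33. *TCH3* stood at 46.4, 47.1, 30.0 and 31.9 CPM in the wild type and 104, 77.2, 78.5 and 85.2 in *morc1* (1.15, SE 0.11, 2.22-fold, adjusted p = 5.8e-07). *TCH4* stood at 44.1, 46.8, 32.7 and 33.7 CPM in the wild type and 80.9, 54.0, 71.3 and 66.5 in *morc1* (0.79, SE 0.11, 1.73-fold, adjusted p = 5.1e-05). Both genes rose without overlap. *WRKY53* (0.97, 1.96-fold, adjusted p = 0.019) rested on at most 3.65 CPM in any wild-type library. It lost its call with DESeq2 (adjusted p = 0.09) and without *morc1* replicate 1 or 3 or wild-type replicate 3 or 4 (0.80 to 0.94). *RHL41* fell by 0.66 (1.58-fold, adjusted p = 0.03) with overlapping libraries. That call was lost with DESeq2 (adjusted p = 0.23) and without *morc1* replicate 3 or 4 or wild-type replicate 1 or 2 (−0.59 to −0.50). *WRKY40* was at 6.25, 12.5, 3.30 and 3.01 CPM in the wild type, where replicate 2 stood high, and its 0.50 (adjusted p = 0.36) became 1.09 (adjusted p = 0.013) without that library. *STZ* (0.05), *TCH2* (−0.16) and *ERF104* (0.35) did not pass the test. *ERF4* stood at 57.6, 52.0, 52.8 and 50.6 CPM in the wild type and 41.3, 38.2, 34.7 and 34.1 in *morc1*, lower without overlap by less than 1.5-fold (−0.52, adjusted p = 5.1e-05), and *WRKY33* (0.31, adjusted p = 0.044) was also short of that fold. With *morc1* replicates 5 to 7 added, the values were 1.57 for *TCH3*, 1.47 for *TCH4* and 1.82 for *WRKY53*, whose call was then lost (adjusted p = 0.069), as was that of *RHL41* (−0.45, adjusted p = 0.43).

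In the *morc1* background, loss of MED12 had none of the rises seen in Col-0. In *morc1/med12* against *morc1* replicates 5 to 7, 6 of 10 members fell and none rose, where 3.75% of features fell and 1.74% rose, and the median was −0.84. *WRKY33* stood at 105, 110 and 150 CPM in *morc1* and 64.7, 66.9 and 70.7 in the double mutant (−0.86, SE 0.13, 1.82-fold lower, adjusted p = 0.0039). *ERF104* stood at 80.9, 71.0 and 98.9 CPM in *morc1* and 42.6, 49.1 and 41.4 in the double mutant (−0.92, SE 0.12, 1.90-fold lower, adjusted p = 0.0023). Neither gene overlapped between the groups, and both calls were kept without each library in turn.

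*ERF4* fell 1.57-fold in *morc1/med12* (−0.65, adjusted p = 0.0064), and was under the required fold without *morc1* replicate 7 (−0.56). *TCH3* fell 1.76-fold (−0.81, adjusted p = 0.011), from 125, 150 and 172 CPM to 66.2, 85.3 and 103, with an adjusted p of 0.054 without *morc1/med12* replicate 2. *WRKY53* fell 3.95-fold (−1.98, adjusted p = 0.016), from 8.21, 18.0 and 25.6 CPM to 3.97, 3.13 and 5.97. *WRKY53* lost its call without *morc1* replicate 6 or *morc1/med12* replicate 1 or 2 (adjusted p of 0.059 to 0.076). *WRKY40* stood at 19.5, 27.7 and 71.1 CPM in *morc1* and 13.8, 9.79 and 13.6 in the double mutant (−1.68, SE 0.45, 3.21-fold lower, adjusted p = 0.043). Much of the *WRKY40* value rests on *morc1* replicate 7: it was −0.93 (adjusted p = 0.016) without it. The call was lost without *morc1* replicate 6 or any 1 of the 3 double-mutant libraries (adjusted p of 0.066 to 0.15) and with DESeq2 (adjusted p = 0.059).

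The zinc finger genes overlapped in this comparison. *STZ* stood at 19.7, 30.1 and 69.2 CPM in *morc1* and 25.1, 28.2 and 20.3 in *morc1/med12* (−0.71, SE 0.39, adjusted p = 0.29). *RHL41* (−0.86, SE 0.44, adjusted p = 0.25) was also highest in *morc1* replicate 7, at 31.9 CPM against 8.21 and 14.3, and was called lower without replicate 5 (−1.22, adjusted p = 0.043). *TCH2* (−0.23) and *TCH4* (−0.35) were lower by less than 1.5-fold with adjusted p of 0.026 and 0.03.

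The *med12* effect in the *morc1* background was below that in the Col-0 background for 10 of 10 members in a test of the difference, where 7.58% of features differed downward and 5.89% upward, and the median was −1.90. The difference was −4.13 for *WRKY40* (adjusted p = 4e-05), −3.62 for *WRKY53* (adjusted p = 0.00012), −2.88 for *STZ* (adjusted p = 0.00032) and −2.52 for *RHL41* (adjusted p = 0.0016). It was −2.08 for *WRKY33*, −1.73 for *ERF4* and *ERF104*, −1.21 for *TCH2*, −0.82 for *TCH3* and −0.72 for *TCH4* (adjusted p of 2.2e-07 to 0.01). Without *morc1* replicate 7 it was still past the test, at −3.37 for *WRKY40*, −2.20 for *STZ* and −1.81 for *RHL41*. The allele differs between these settings, T-DNA in Col-0 and a small deletion with MED12 transcripts not lowered in *morc1*, and the background and the allele cannot be told apart. The *morc1* control set matters too: the 2 sets of libraries with the same labelled genotype stood at 68.2 (replicates 1 to 4) and 157 CPM (replicates 5 to 7) for *TCH4*, 86.1 and 149 for *TCH3*, and 57.3 and 122 for *WRKY33*.

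Loss of MED13 in *morc1* raised 8 of 10 members and lowered none, where 7.6% of features rose and 11.3% fell, and the median was 1.01. *STZ* stood at 53.6, 35.5, 34.7 and 26.0 CPM in *morc1* and, without overlap, at 98.5, 77.5, 68.3 and 144 in *morc1/med13* (1.37, SE 0.26, 2.58-fold, adjusted p = 0.0021). *WRKY40* stood at 11.4, 8.22, 6.82 and 9.06 CPM in *morc1* and 46.6, 15.3, 20.4 and 91.1 in *morc1/med13* (2.28, SE 0.55, 4.85-fold, adjusted p = 0.0075), and the value was 1.62 without *morc1/med13* replicate 4, the highest library. *ERF4* rose 2.04-fold (1.03, adjusted p = 0.00064), from 34.1 to 41.3 CPM to 51.2 to 88.1. Library 4 of *morc1/med13* was the highest of its group for every member except *WRKY53*.

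*RHL41* rose 2.72-fold in *morc1/med13* (1.44, adjusted p = 0.0013), *TCH2* 1.71-fold (0.77, adjusted p = 0.00041) and *WRKY33* 2.03-fold (1.02, adjusted p = 0.0027). *TCH4* rose 2.00-fold with overlapping libraries (1.00, SE 0.29, adjusted p = 0.018), at 97.2, 75.3, 161 and 212 CPM in the double mutant, and its adjusted p was 0.056 without *morc1* replicate 2. *WRKY53* (0.98, 1.97-fold, adjusted p = 0.049) overlapped as well. It was lost in all 7 fits without 1 library other than *morc1/med13* replicate 3, with values of 0.78 to 1.16 there, and in the fit with a replicate block (adjusted p = 0.08). *TCH3* (0.41, adjusted p = 0.089) did not pass the test. *ERF104* did not pass the test either (0.00, SE 0.29, adjusted p = 0.99), with 43.7, 36.8, 48.5 and 107 CPM in the double mutant, where replicate 4 stood apart, against 70.7, 52.6, 60.5 and 51.1 in *morc1*.

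The *med13* effect in *morc1* was not shown to differ from that in Col-0 for any member, where 13.8% of features differed upward and 9.38% downward, and the median was 0.19. DESeq2 also called none, and 2 members, *TCH3* and *TCH4*, were below 0.05 before adjustment in edgeR. The largest values were 0.70 for *TCH4* (adjusted p = 0.12), 0.60 for *WRKY40* and −0.59 for *ERF104* (adjusted p = 0.22). The values were 0.03 for *TCH2*, 0.47 for *TCH3*, −0.48 for *STZ*, 0.13 for *RHL41*, 0.26 for *WRKY33*, 0.07 for *WRKY53* and 0.32 for *ERF4*. Without *morc1/med13* replicate 4 the *ERF104* difference was −1.08 and past the test (adjusted p = 0.0017), and without replicate 2 of that group *TCH4* (0.86) and *TCH3* (0.55) were past it.

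The *ddc* plants, which lack non-CG DNA methylation at many loci, had the highest mean CPM of both *TCH3* and *TCH4*. Against the reporter wild type, 3 of 10 members rose and 2 fell, where 12.4% of features rose and 14.8% fell, and the median was 0.45. This comparison shares its wild type with that of *morc1*. *TCH4* stood at 228, 190, 227 and 209 CPM in *ddc*, against 32.7 to 46.8 in the wild type (2.45, SE 0.10, 5.46-fold, adjusted p = 6.6e-10). *TCH3* stood at 190, 166, 202 and 175 CPM (2.25, SE 0.12, 4.75-fold, adjusted p = 4.7e-09). *ERF104* rose 1.94-fold (0.96, adjusted p = 5.1e-05). The zinc finger genes went the other way: *STZ* fell 2.56-fold (−1.36, SE 0.18, adjusted p = 2.8e-05), from 46.7, 40.4, 30.9 and 27.4 CPM to 13.7, 16.2, 11.5 and 14.5, and *RHL41* fell 1.73-fold with overlap (−0.79, adjusted p = 0.0094). *TCH2* (−0.19), *ERF4* (−0.38), *WRKY33* (0.57), *WRKY40* (0.75) and *WRKY53* (0.32) were not called. *WRKY40* was called without *ddc* replicate 4 (0.95, adjusted p = 0.019), without wild-type replicate 2 (1.34, adjusted p = 0.0058) and with a replicate block (0.79, adjusted p = 0.046). *WRKY33* was called without *ddc* replicate 1 or 4 or wild-type replicate 1 or 2 (0.59 to 0.63).

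Loss of MED13 in *ddc* raised 7 of 10 members and lowered none, where 7.9% of features rose and 7.1% fell, and the median was 0.85. *STZ* went from its low *ddc* levels to 119, 93.5, 72.6 and 80.0 CPM (2.71, SE 0.17, 6.53-fold, adjusted p = 3.1e-06). *WRKY40* stood at 11.7, 11.8, 12.6 and 5.72 CPM in *ddc* and 62.5, 56.0, 19.5 and 29.8 in *ddc/med13* (2.01, 4.03-fold, adjusted p = 0.0017). *RHL41* rose 2.82-fold (1.49, adjusted p = 0.00019), from 11.3, 10.9, 12.6 and 15.1 CPM to 47.9, 34.2, 26.9 and 31.2. All 3 genes were free of overlap.

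*TCH2* rose 1.65-fold in *ddc/med13* (0.73, adjusted p = 0.00022) and *WRKY33*, with overlap, 1.96-fold (0.97, adjusted p = 0.0081). *ERF4* rose 1.54-fold (0.62, adjusted p = 0.0056) and was under the fold required without *ddc* replicate 3 or *ddc/med13* replicate 1 (0.57 and 0.49). *WRKY53* rose 3.84-fold (1.94, SE 0.55, adjusted p = 0.019) with overlap, from 3.13, 6.22, 3.49 and 3.03 CPM to 10.2, 35.7, 5.87 and 9.66. Without *ddc/med13* replicate 2 the *WRKY53* value was 1.10 and still called, and without *ddc* replicate 1 or 3 its adjusted p was 0.054 and 0.052. *TCH3* (−0.30, adjusted p = 0.023), *TCH4* (−0.18, adjusted p = 0.2) and *ERF104* (−0.26, adjusted p = 0.089) were not called. The *med13* effect in *ddc* was below that in Col-0 for *TCH4* (−0.50, adjusted p = 0.019) and *ERF104* (−0.88, adjusted p = 0.0035), 2 of 10 members, where 11.2% of features differed downward and 11.8% upward, and the median was 0.06. The *STZ* effect was 0.83 higher in *ddc* (adjusted p = 0.056), and past the test with DESeq2 (adjusted p = 0.025), with no filter on low counts (0.042), with a replicate block (0.012) and without Col-0 replicate 3 or 4, *ddc/med13* replicate 3 or *med13* replicate 1 (0.027 to 0.049). The differences of *TCH2* (−0.04), *TCH3* (−0.27), *RHL41* (0.16), *WRKY40* (0.31), *WRKY33* (0.18), *WRKY53* (1.02, SE 0.77) and *ERF4* (−0.11) did not pass the test, that of *TCH3* being past it without *ddc/med13* replicate 2 (−0.38, adjusted p = 0.046).

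**Figure D5:**
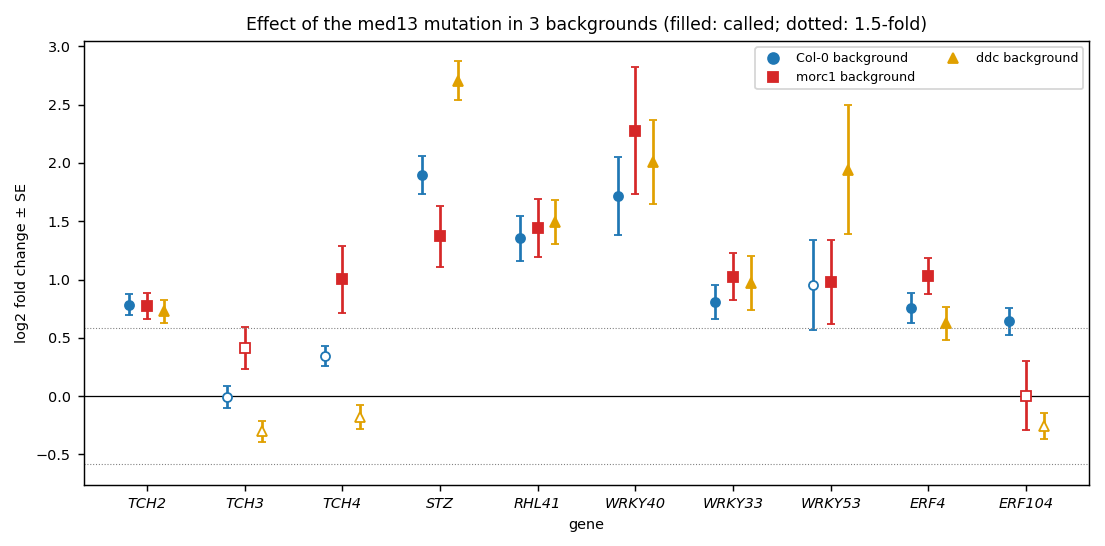
Log2 difference between *med13* mutants and their controls for each of the 10 genes in 3 backgrounds (Col-0, *morc1* and *ddc*), with bars of 1 standard error, filled symbols for called genes and dotted lines at 1.5-fold. *STZ*, *RHL41* and *WRKY40* lie above 1 in all 3, and *ERF104* is 0.64 in Col-0, 0.00 in *morc1* and −0.26 in *ddc*.

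Beside the members, 70 further genes of the same families and pathways were counted in 6 lists (touch and calcium, C2H2 zinc fingers, WRKY, ERF, rapid wound and defence signalling, and CBF cold factors). In long-day *med12*, 43 of 68 tested rose and 1 fell, where 7.66% of all features rose and 5.12% fell. By list, 6 of 10 touch and calcium genes, 3 of 7 zinc finger genes, 6 of 15 WRKY genes, 8 of 13 ERF genes, 17 of 20 wound and defence genes and 3 of 3 CBF genes rose, and the 1 gene that fell was *WRKY60* (−1.13), whose protein acts with *WRKY40*. The ERF gene *RRTF1*, a redox-responsive factor, went from 0.206 to 47.8 CPM (7.76, adjusted p = 0.00013), and the cold regulators *CBF2* from 0.577 to 33.0 CPM (5.83, adjusted p = 2.6e-06) and *CBF1* from 0.648 to 18.5 CPM (4.81, adjusted p = 9.4e-06). The CBF genes are similar tandem copies, so the split of reads between them is uncertain. In long-day *med13*, 32 of 68 rose and 1 fell, where 7.16% of all features rose and 6.27% fell. *RRTF1* (6.79), *CBF2* (5.27) and *CBF1* (4.28) again had the largest rises, and *WRKY60* (−1.45) was the one that fell. In *morc1/med13*, 28 of 61 rose and 3 fell (7.6% and 11.3% of all features). In *ddc/med13*, 31 of 61 rose and 5 fell (7.9% and 7.1% of all features). *RRTF1* again had the largest rise in both (6.74 and 6.15).

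The related genes went the other way in the light experiment. In *med12* after dark, 22 of 67 fell and 1 rose, where 7.69% of all features fell and 5.71% rose. The zinc finger gene *ZAT8* was at 7.40 CPM in Col-0 and 0.576 in *med12* (−3.65). Its similar neighbour *ZAT7* was at 2.81 and 0.288 CPM (−3.21) and the jasmonate synthesis gene *LOX4* at 9.91 and 1.83 CPM (−2.44). After light, also 22 of 67 fell and 1 rose, where 9.1% of all features fell and 5.06% rose. The calmodulin-like gene *CML37* was at 4.31 and 0.663 CPM (−2.65) and *WRKY30* at 2.32 and 0.353 CPM (−2.63). In *morc1/med12*, 15 of 64 fell and 3 rose, where 3.75% of all features fell and 1.74% rose. The number that fell was 8 to 29 when 1 library was left out. The light pulse raised 8 of 67 in Col-0 (1.94% of all features) and 7 of 67 in *med12* (0.783%). It lowered 1 in each (0.934% and 0.986% of all features), *WRKY22* (−1.21 and −0.87). *CBF3* rose from 1.48 to 13.2 CPM in Col-0 (3.13, adjusted p = 2.3e-17). It also rose in *med12*, from 0.626 to 3.64 CPM (2.51, adjusted p = 1.1e-07). The *CBF3* response was not shown to differ between genotypes (adjusted p = 0.83). In *morc1*, 6 of 58 rose and 5 fell (1.19% and 1.37% of all features). In *ddc*, 18 of 58 rose and 18 fell (12.4% and 14.8% of all features).

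Genes that report time of day and heat were read in the same comparisons, since levels of the members may move with either. The shares of all features called in each comparison are given with the members above. Of 9 clock genes, 5 rose in long-day *med12*, with *GI* going from 9.05 to 190 CPM (4.40, adjusted p = 4e-10), *PRR7* from 53.3 to 204 and *PRR9* from 0.159 to 3.47, and 5 rose in *med13*. In *morc1/med12*, where 6 members fell, none of 7 clock genes tested was called, *GI* being at 178 CPM against 184 in *morc1*. In *morc1/med13*, where 8 members rose, 1 clock gene rose and 5 fell, and *GI* went from 194 to 76.0 CPM. In *ddc/med13*, 2 rose and 3 fell, in *ddc*, 4 rose and 3 fell, and in *morc1* none was called. In *med12*, 2 fell after dark and 4 after light, and the light pulse raised 2 in Col-0 and 1 in *med12*. Of 5 heat shock genes, 2 rose in long-day *med12* and 5 in *med13*, 2 fell in *ddc/med13*, and none was called in either *morc1* double mutant. Of the same genes, 3 rose in *ddc*, where the libraries differed widely (*HSP17.6II* at 34.2 ± 57.5, *HSFA2* at 22.6 ± 29.5 and *HSP90.1* at 126 ± 168 CPM, SD, n = 4) and the last 2 overlapped the wild type. The genes that fell in *ddc/med13* were *HSP17.6II* and *HSFA2*, both with overlap. In addition, 1 rose in *morc1*, 1 fell in *med12* after dark and after light, and the light pulse raised 2 of 4 tested in Col-0 and none in *med12*. The study's methods state that all plants were grown and harvested together. The part of clock phase and of heat in the member results was not tested.

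Across the 14 group means, the members did not all follow 1 pattern. Over their 45 pairs, Pearson's r of log2 levels had a median of 0.565 and ran from 0.01 (*WRKY53* with *ERF104*) to 0.95 (*WRKY40* with *WRKY33*), with *STZ* and *RHL41* at 0.87. These are descriptions over 14 groups, whose levels share 1 scaling over all libraries and whose depth differs. Among 21291 genes compared, the profiles most like the members' mean profile were those of AT3G04640 (r = 0.95), AT2G27080 (0.94), AT2G27260 (0.94), the nudix hydrolase gene *NUDT7* (0.93) and the CCCH zinc finger gene *SZF1* (0.93).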

How the data were processed

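Single-end reads of a stranded poly(A) RNA kit were processed by the authors: per the labels and the study's methods, reads were trimmed with Trim Galore, aligned to TAIR10 with STAR, stripped of duplicates with Picard, and counted on Araport11 genes and transposable elements with HTSeq (0.6.1). The authors deposited raw counts, 1 table per library. Rows that name no gene, present in 44 of 50 tables (3.03 to 5.81% of counts), were left out. Counts were tested with edgeR 4.0.16 in R 4.3.3 (quasi-likelihood fit, filterByExpr, TMM factors, Benjamini-Hochberg adjustment over all features), each set of libraries in its own fit, and a call needed 1.5-fold and an adjusted p below 0.05. CPM values used TMM factors over all 50 libraries. Where edgeR's bound for counting noise set the p-value, the SE was taken from that p. Duplicate removal can cap counts of dense genes. Members held up to 0.524 counts per exonic base (*TCH4*), with 0.449 for *WRKY33* and 0.441 for *STZ*. Their fold changes may therefore be compressed, and more so in sets with more counts. The size of that effect on the member results, and on differences between sets, was not tested. The script was tested on simulated counts, with calls by adjusted p below 0.05 alone. It recovered 85 to 100% of 2-fold changes and 53 to 93% of 1.5-fold changes, fewest in *ddc/med13* against *ddc*. Changes were placed only in genes above a minimum mean count, and capping by duplicate removal was not simulated. Recovery was thus not measured at counts as low as those of *WRKY53* in the reporter wild type (9 to 12). Of its calls, 3.51 to 8.62% were false, most in *morc1/med12* against *morc1*.

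The members, the gene lists and the tests were chosen with earlier results of these data known. All 10 members were named in every comparison, and related genes by the size of their rise or fall. Alternatives were DESeq2 1.42.0, other size factors, no filter, a replicate block, fewer groups in the fit, added *morc1* libraries, and each library left out. Motifs were read from RefSeq TAIR10.1. Figures were drawn with matplotlib 3.10.9.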

Additional observations from a re-analysis of the deposited data

Results flagged for a closer look

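Within groups of 4 libraries, 4 of 80 combinations of member and group held a library far from the others, and chance gives about 1 in 20. *WRKY40* in *ddc* replicate 4 stood at 5.72 CPM with the others at 11.7 to 12.6. *WRKY53* stood at 6.22 CPM in *ddc* replicate 2 (others 3.03 to 3.49) and at 35.7 CPM in *ddc/med13* replicate 2 (others 5.87 to 10.2). *ERF104* stood at 107 CPM in *morc1/med13* replicate 4 (others 36.8 to 48.5).

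Effects of losing the same subunit, or of the light pulse, that differed between settings by a test of the difference (edgeR) were also singled out. For the light response, *WRKY40* differed by 0.70 (log2, *med12* minus Col-0, adjusted p = 0.047). For the *med12* effect, dark minus long days, the differences were −0.71 for *TCH2*, −0.99 for *TCH3*, −2.73 for *STZ*, −1.86 for *RHL41*, −3.46 for *WRKY40*, −1.53 for *WRKY33*, −2.38 for *WRKY53*, −1.57 for *ERF4* and −1.43 for *ERF104*. For the *med12* effect, *morc1* minus Col-0 background, they were −1.21 for *TCH2*, −0.82 for *TCH3*, −0.72 for *TCH4*, −2.88 for *STZ*, −2.52 for *RHL41*, −4.13 for *WRKY40*, −2.08 for *WRKY33*, −3.62 for *WRKY53*, −1.73 for *ERF4* and −1.73 for *ERF104*. For the *med13* effect, *ddc* minus Col-0 background, they were −0.50 for *TCH4* and −0.88 for *ERF104*. The settings differ in set of libraries, allele or background as well, and their part in these differences cannot be told apart.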

How the results depend on the processing

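Of 75 member calls, 71 were kept with DESeq2 (2 gained), 74 with other size factors and 74 with no filter on low counts (1 gained). With the replicate block, 58 of 59 were kept (2 gained), and with only the compared groups in the fit 16 of 16. Of 814 member calls in fits without 1 library, 771 were kept, 43 were lost and 23 were gained. No direction reversed under any alternative.

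The members called higher in the difference of the light response went from 1 to 0 with DESeq2, with other size factors and with no filter. In *morc1*, members called lower went from 1 to 0 with DESeq2 and with replicates 5 to 7 added. In the difference of the *med13* effect between *ddc* and Col-0, members called higher went from 0 to 1 with DESeq2, with no filter and with the replicate block. Correlations of the deviations of same-numbered libraries ran from −0.1337 to 0.1675, and in no comparison was every one over 0.1, so the numbers were not taken as pairs. The block cost *WRKY53* in *morc1/med13* (adjusted p = 0.08, edgeR). No paired analysis was possible for *morc1/med12* because its libraries share no number with their controls. The cause of these changes was not tested.

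Without 1 library in turn, members called higher numbered 1 to 2 for light in Col-0, 1 to 2 for light in *med12*, 0 to 1 for the light difference, 8 to 8 for long-day *med12*, 6 to 8 for *med13*, 2 to 4 for *morc1*, 6 to 8 for *morc1/med13*, 3 to 5 for *ddc*, 5 to 7 for *ddc/med13*, 0 to 2 for the *med13* difference in *morc1* and 0 to 1 in *ddc*. Members called lower numbered 4 to 5 for *med12* after dark, 2 to 2 after light, 0 to 1 for *morc1*, 3 to 7 for *morc1/med12*, 2 to 2 for *ddc*, 9 to 9 and 10 to 10 for the *med12* differences (dark, *morc1*), and 0 to 1 and 2 to 3 for the *med13* differences (*morc1*, *ddc*).

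Over all features, DESeq2 changed the counts called higher from 166 to 109 (light in *med12*), 92 to 21 (light difference, with 129 to 39 lower), 2216 to 1425 (*med12*, dark minus long days) and 1239 to 824 (*med12*, *morc1* minus Col-0). Adding *morc1* replicates 5 to 7 took the features called lower in *morc1* from 265 to 139. With libraries of each light group summed, a choice made after seeing the data, the same calls stood by fold alone except *ERF104* in *med12* after dark (−0.58). Depth limits *WRKY53* and *WRKY40* most, which were at 3.24 and 6.26 CPM in the reporter wild type.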

Other observations

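The summed level of the 10 genes was 408 ± 29.8 CPM (SD, n = 4) in long-day Col-0, 770 ± 50.8 in *med12* and 643 ± 117 in *med13*. It was 427 ± 55.3 CPM in *morc1* replicates 1 to 4 (n = 4) and 732 ± 142 in replicates 5 to 7 (n = 3), libraries of the same labelled genotype. The second set was the control of *morc1/med12* (455 ± 37.1, n = 3). Against replicates 1 to 4, the reporter wild type stood at 350 ± 59.5 CPM (n = 4). No test was made across these sets.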
